A study of Homo sapiens with 2 samples.

Results

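EWSR1, TAF15 and FLI1 are 3 of the 19112 genes targeted in a genome-scale CRISPR/Cas9 knockout screen of Ewing sarcoma cells. They were chosen by symbol, and every listed single guide RNA (sgRNA) carrying one of these symbols was taken, which gave 11 of 74336 distinct sgRNAs. EWSR1 (chromosome 22) had 3 listed sgRNAs, TAF15 (chromosome 17) had 4 and FLI1 (chromosome 11) had 4. The screened cells were a single clone of A673, a human Ewing sarcoma line, that carried tdTomato at the 3′ end of FLI1, which also forms the end of the EWSR1::FLI1 gene, together with EGFP and Cas9. They received the Brunello knockout library as lentivirus at a multiplicity of infection of 0.3, were kept in 2 µg/ml puromycin for 12 days and were then grown for 3 days without it. The group called unsorted is this population as a whole, and the group called sorted is its tdTomato-low EGFP-high fraction, which was expanded after flow sorting. Each group was 1 sequenced library, so no difference has a replicate check and every test below compares these libraries, not the conditions.

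EWSR1 and TAF15 belong to the FET family, nuclear proteins that bind RNA and DNA and carry a low-complexity N-terminal region that activates transcription when it is joined to a DNA-binding domain. FLI1 is a transcription factor of the ETS family, which binds DNA through its ETS domain. In most Ewing sarcomas a translocation joins the N-terminal part of EWSR1 to the C-terminal part of FLI1, and TAF15 can take the place of EWSR1 in fusions of other sarcomas and leukemias. Cultured A673 cells survive and divide when the fusion is lost. In a reporter of this kind a cell that loses the fusion protein is dim for tdTomato.

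The 20-base guide sequences are shown because sgRNAs of the same gene gave different readouts, and each sgRNA is called below by the number given here. Capitals mark CTNACCTG, the reverse complement of CAGGTNAG, letters that are common where an exon ends and an intron begins. The motif was picked after the guides had been seen.
EWSR1 sgRNA 1: tgggtcttcataggacactg
EWSR1 sgRNA 2: aaaaagtagaCTGACCTGgt
EWSR1 sgRNA 3: atgagtggccctgataaccg
TAF15 sgRNA 1: cagcaaccatataataacca
TAF15 sgRNA 2: tgtgtctacagatcaagttg
TAF15 sgRNA 3: agcagtcctatcattcacaa
TAF15 sgRNA 4: aggacacaggaaagccaaag
FLI1 sgRNA 1: ccaacatgaccaccaacgag
FLI1 sgRNA 2: actgtgtaaaatgaacaagg
FLI1 sgRNA 3: actcaatcgtgaggattggt
FLI1 sgRNA 4: CTTACCTGgatccattcatg
On both strands, 225 of 74336 guides (0.303%) held the motif, and 2 of them are EWSR1 sgRNA 2 and FLI1 sgRNA 4. Of these 225 sgRNAs, 14.7% were enriched by the rule given below and 58.2% had 0 sorted reads. The GC content of the 11 guides ran from 35% to 55%. Each differed by 4 to 6 bases from its nearest other listed guide, while mapping allowed at most 3 mismatches. Cut sites were not located in the genome or in the proteins, so whether a given sgRNA cuts the part of EWSR1 or FLI1 that is kept in the fusion was not tested. A RefSeq promoter window was at hand only for EWSR1, and 0 of its 3 guides lay in it, which does not place their cut sites.

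The unsorted library held 10483144 reads and the sorted library 1455322, a ratio of 7.20. An sgRNA with the same share of both libraries thus had 7.20 unsorted reads for each sorted read. For each sgRNA the odds ratio of its reads to all other reads, sorted over unsorted, was put to Fisher's exact test (two-sided), and p-values were adjusted over all 74336 sgRNAs by the Benjamini-Hochberg method. Enriched sgRNAs are those with an adjusted p under 0.05 and an odds ratio of 2 or more, and depleted sgRNAs are those with an adjusted p under 0.05 and an odds ratio of 0.5 or less. Most sgRNAs were absent from the sorted library: 57.6% had 0 sorted reads, 51.7% were called depleted and 20.8% enriched. Since the amplified reads had no molecular identifiers they cannot be taken as separate molecules, and the exact 95% intervals and the floor of 3 reads set for a count of 0 cover counting error only.

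Of the 7 sgRNAs against the FET genes, 4 (57.1%) were enriched, where 20.8% of all sgRNAs were, and 1 had 0 sorted reads. Of the 4 sgRNAs against FLI1, 0 were enriched and 4 had 0 sorted reads. Of all 11 sgRNAs, 4 were enriched, 2 were depleted and 5 were neither. EWSR1 and TAF15 each had 2 enriched sgRNAs, and FLI1 had both of the depleted ones. Among all sgRNAs 51.7% were depleted and 57.6% had 0 sorted reads, so 2 of 4 depleted for FLI1 is near the library share.

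**Figure D1:**
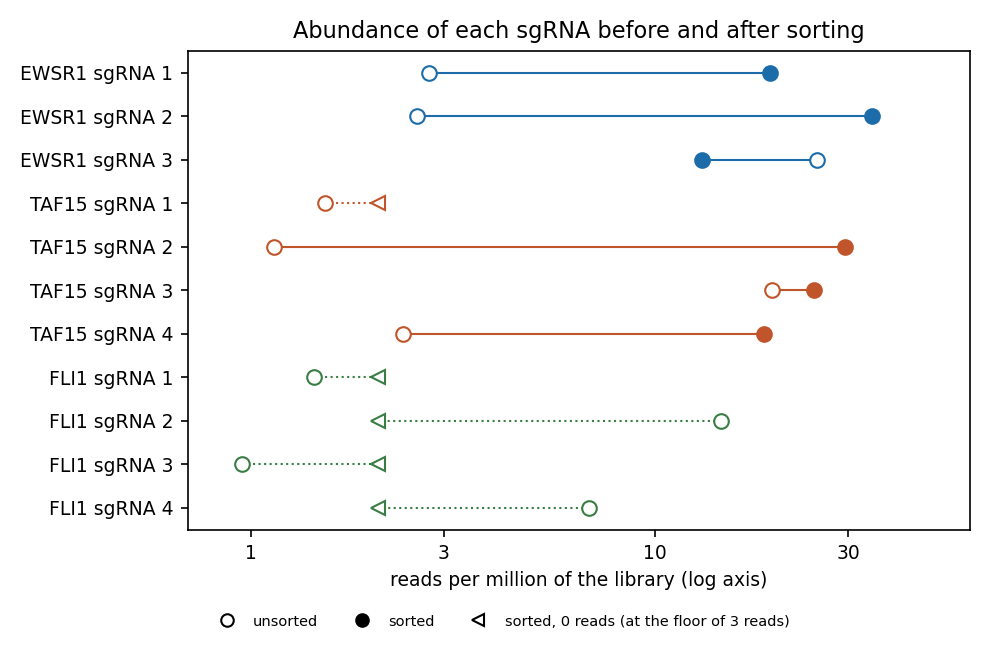
Abundance of the 11 sgRNAs in RPM, the reads per 1000000 reads of each library (log axis), with open circles for the unsorted library, filled circles for the sorted library, and open triangles, drawn at the floor of 3 reads (2.06 RPM), for 0 sorted reads. The longest move to the right is TAF15 sgRNA 2, from 1.14 to 29.5 RPM, and all 4 FLI1 sgRNAs end at the floor.

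EWSR1 encodes the fusion partner that supplies the promoter and the N-terminal activation region. Its sgRNA 1 had 29 unsorted and 28 sorted reads, or 2.77 and 19.2 RPM (reads per 1000000 reads of the library). Its sgRNA 2 had 27 unsorted and 50 sorted reads, or 2.58 and 34.4 RPM. Its sgRNA 3 had 264 unsorted and 19 sorted reads, or 25.2 and 13.1 RPM. The first and the second were thus higher in the sorted library, and the third, the most abundant of the 11 before sorting, was lower. The odds ratio of sgRNA 1 was 6.96 (3.99 to 12.1, exact 95% interval; adjusted p = 4.39e-11 by Fisher's exact test). That of sgRNA 2 was 13.3 (8.19 to 22.2; adjusted p = 5.32e-26 by Fisher's exact test). That of sgRNA 3 was 0.518 (0.307 to 0.826; adjusted p = 0.00512 by Fisher's exact test), just above the limit of 0.5 for a depleted sgRNA. The interval of sgRNA 3 does not overlap those of the other EWSR1 sgRNAs, so guides against one gene moved in opposite directions by more than counting error.

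TAF15 encodes another FET protein, which associates with RNA polymerase II and the TFIID complex. Its sgRNA 1 had 16 unsorted and 0 sorted reads. At an equal share it would have had 2.22 sorted reads, fewer than the floor of 3, so no loss of this sgRNA was detectable at this depth (adjusted p = 0.279 by Fisher's exact test). Its sgRNA 2 rose from 12 unsorted to 43 sorted reads, or from 1.14 to 29.5 RPM, with an odds ratio of 25.8 (13.4 to 53.8; adjusted p = 1.03e-27 by Fisher's exact test). This was the highest of the 11, and 99.1% of all sgRNAs had a lower one. Its sgRNA 3 had 204 unsorted and 36 sorted reads, or 19.5 and 24.7 RPM, with an odds ratio of 1.27 (0.866 to 1.82; adjusted p = 0.229 by Fisher's exact test). The interval of sgRNA 3 lies below 2 and includes 1. Its sgRNA 4 rose from 25 unsorted to 27 sorted reads, or from 2.38 to 18.6 RPM, with an odds ratio of 7.78 (4.35 to 14.0; adjusted p = 1.98e-11 by Fisher's exact test). The 4 TAF15 sgRNAs thus held 2 enriched ones, 1 near an equal share and 1 too rare to read.

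FLI1 encodes the partner that supplies the ETS domain and, in this line, carries tdTomato. Its 4 sgRNAs had 15, 153, 10 and 72 unsorted reads in the order listed above, which is 1.43, 14.6, 0.954 and 6.87 RPM, and each had 0 sorted reads. For sgRNA 2 an equal share would have given 21.2 sorted reads. Its odds ratio had an upper exact 95% limit of 0.176 (adjusted p = 1.11e-08 by Fisher's exact test). Set at the floor of 3 reads, with the unsorted count taken as free of error, its share would be 7.08-fold lower. For sgRNA 4 the upper limit was 0.379 (adjusted p = 0.000318 by Fisher's exact test), and at the floor its share would be 3.33-fold lower. For sgRNA 2 and sgRNA 4 the exact limit, which covers counting error in each library, allows a smaller fall. These are the sgRNAs called depleted. For sgRNA 1 and sgRNA 3 an equal share would have given 2.08 and 1.39 sorted reads, fewer than the floor. Their odds ratios had upper limits of 2.01 (adjusted p = 0.276 by Fisher's exact test) and 3.21 (adjusted p = 0.659 by Fisher's exact test). The counts of these rarer guides leave room for depletion and for a rise of 2-fold.

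**Figure D2:**
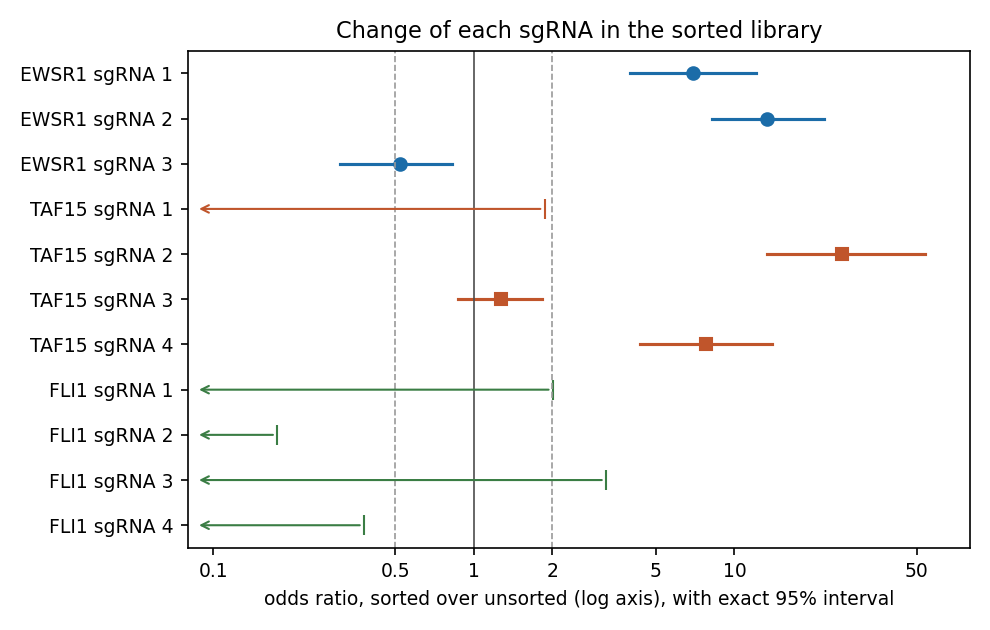
Odds ratio of each sgRNA, sorted over unsorted (log axis), with its exact 95% interval; dashed lines mark 0.5 and 2, the solid line marks 1, and an arrow runs down from the upper limit where the sorted count was 0. The intervals of EWSR1 sgRNAs 1 and 2 and TAF15 sgRNAs 2 and 4 lie wholly above 2, and those of FLI1 sgRNAs 2 and 4 lie wholly below 0.5.

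Summed over its sgRNAs, EWSR1 had 320 unsorted and 97 sorted reads, or 30.5 and 66.7 RPM, an odds ratio of 2.18 (exact 95% interval 1.72 to 2.75). Of the 320 unsorted reads, 264 belonged to sgRNA 3, while its 19 sorted reads were the fewest of the gene. TAF15 had 257 unsorted and 106 sorted reads in all, or 24.5 and 72.8 RPM, an odds ratio of 2.97 (2.35 to 3.74). Over all genes the median odds ratio of the summed reads was 0.885. It was higher than that of EWSR1 for 2543 of 19112 genes (13.3%), and higher than that of TAF15 for 1200 (6.28%). By the median log2 ratio over a gene's sgRNAs (library shares, pseudocount 0.5 reads) the order of these genes turned. The median was 2.80 for EWSR1, with 65 genes higher (0.340%), and 1.66 for TAF15, with 487 genes higher (2.55%), against -2.82 over all sgRNAs. Which FET gene stood higher thus depended on how its sgRNAs were combined. With 3 sgRNAs the median of EWSR1 is the value of its sgRNA 1, while that of TAF15 is the mean of the middle 2 of 4. The ranks take genes with any number of sgRNAs. At least 2 enriched sgRNAs, as EWSR1 had, were found for 9.66% of the 1667 genes with 3 listed sgRNAs, and, as TAF15 had, for 19.9% of the 17233 genes with 4.

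Summed over its sgRNAs, FLI1 had 250 unsorted reads (23.8 RPM) and 0 sorted reads where an equal share would have given 34.7. The upper exact 95% limit of its odds ratio was 0.107. At a floor of 3 reads over the gene, with the unsorted reads taken as free of error, its summed share would be 11.6-fold lower. The exact limit allows a smaller fall. Its median log2 ratio, which at 0 sorted reads depends on the pseudocount, was -3.22. Absence of a whole gene from the sorted library was common: of the 17233 genes with 4 listed sgRNAs, 12.5% had 0 sorted reads for all 4. Those 2158 genes had a median of 358 summed unsorted reads, and 1585 of them (73.4%) had at least the 250 of FLI1. Among the 2086 genes with 4 listed sgRNAs and at most 250 summed unsorted reads, 581 (27.9%) had 0 sorted reads for all 4. FLI1 lies at the upper edge of this set. Rarer sgRNAs were more often at 0, as the bins below show, so 27.9% may exceed the share at the depth of FLI1. FLI1 is therefore 1 of many genes at 0, and its 250 reads lie below the median of 513 for genes with 4 listed sgRNAs.

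Leaving out TAF15 sgRNA 1, which had 16 unsorted and 0 sorted reads, the enriched FET sgRNAs were the rarer ones before sorting. Unsorted reads are also the denominator of the ratio. Among the 6 sgRNAs of EWSR1 and TAF15 with sorted reads, sorted counts lay between 19 and 50, a range of 2.63 times, while unsorted counts lay between 12 and 264, a range of 22 times. The 4 enriched ones had 12 to 29 unsorted and 27 to 50 sorted reads. The others, TAF15 sgRNA 3 and EWSR1 sgRNA 3, had 204 and 264 unsorted reads and 36 and 19 sorted reads. Among these 6 the sorted counts of enriched and other sgRNAs overlapped, and the unsorted counts did not. TAF15 sgRNA 1, which was not enriched, lay within the unsorted range of the enriched ones. Unsorted reads enter the call as the denominator, so at like sorted counts the split among the 6 largely follows from the rule itself. Of the 11 sgRNAs, 8 lay below the unsorted library median of 103 reads. Of the 4 with at least 30 unsorted reads 0 were enriched, and those of FLI1 among them had 0 sorted reads. In the bins by unsorted reads that hold these 4, described next, between 12.7% and 27.7% of all sgRNAs were enriched. With so few sgRNAs, 0 of 4 does not set them apart from others of like depth.

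Across the library unsorted reads went with both the share found after sorting and, less steeply, the sorted count of those found. When all sgRNAs were split by unsorted reads into 10 bins of like size, 77.4% had 0 sorted reads in bin 1, the rarest, and 35.2% in bin 10. Those with any sorted reads, a set chosen by its sorted count, had a median of 26 sorted reads in bin 1 and 48 in bin 10, while their median unsorted reads went from 11 to 389. Of those with any sorted reads, 72.4% were enriched in bin 1 and 10.3% in bin 10. In bin 2 (22 to 41 unsorted reads), which holds EWSR1 sgRNAs 1 and 2 and TAF15 sgRNA 4, 22.9% of all sgRNAs were enriched and 72.9% had 0 sorted reads. Of the sgRNAs there that had any sorted reads, 84.6% were enriched, with a median of 36 sorted reads and quartiles of 19 and 53, so the 28, 50 and 27 reads of these FET sgRNAs lie within the quartiles. In bin 1 (0 to 21 unsorted reads), which holds TAF15 sgRNAs 1 and 2 and FLI1 sgRNAs 1 and 3, 16.3% were enriched. The sgRNAs present there had a median of 26 sorted reads and an upper quartile of 46. The 43 sorted reads of TAF15 sgRNA 2 lie between these values. That comparison is with a set chosen by its sorted count. Over all of bin 1, 77.4% had 0 sorted reads, so 43 reads were not a common count at that depth. The odds ratio of 25.8 of TAF15 sgRNA 2 rests on 12 unsorted reads.

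The abundant sgRNAs can be read in the same way. In bin 9 (225 to 306 unsorted reads), which holds EWSR1 sgRNA 3, 12.7% of sgRNAs were enriched and 45.0% had 0 sorted reads. Its 19 sorted reads lie below the lower quartile of 25 of those present, but above the 45.0% at 0. In bin 8 (172 to 224), which holds TAF15 sgRNA 3, 17.8% were enriched and 47.1% had 0 sorted reads. Its 36 sorted reads lie between the lower quartile of 24 and the median of 42 of those present. FLI1 sgRNA 2 lies in bin 7 (133 to 171), where 50.5% had 0 sorted reads and 56.4% were depleted. FLI1 sgRNA 4 lies in bin 4 (60 to 79), where 64.3% had 0 sorted reads and 66.1% were depleted. At the depth of either depleted FLI1 sgRNA, being depleted was thus the more frequent outcome among all sgRNAs. Whether the spread of sorted counts came from the number of sorted cells, their expansion or amplification was not tested.

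**Figure D3:**
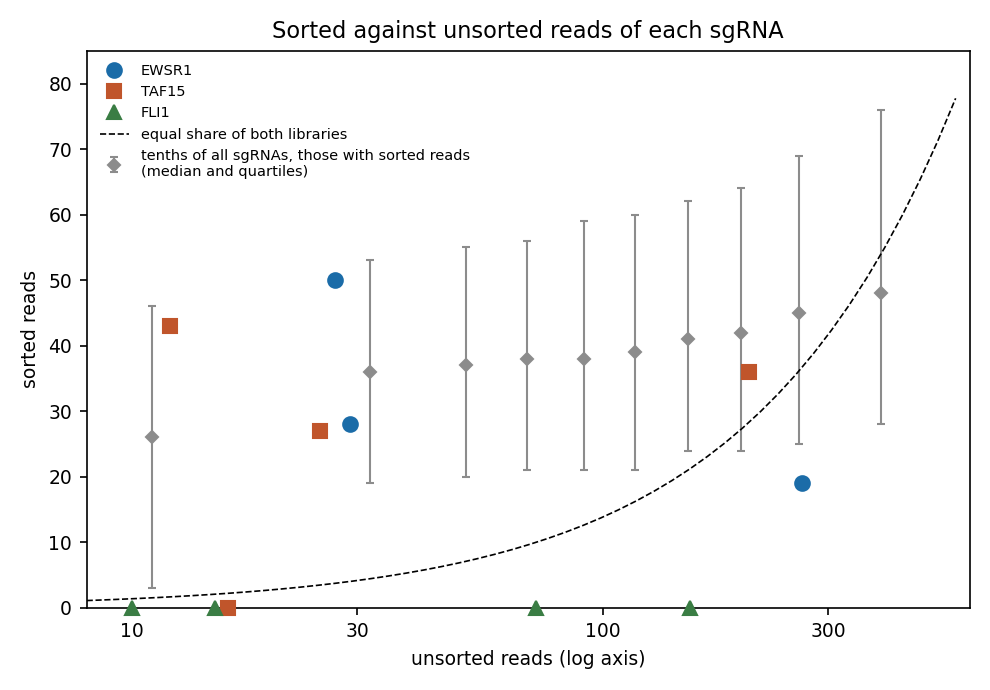
Sorted reads of the 11 sgRNAs against their unsorted reads (log axis), with the gene of each given by its symbol; grey diamonds and bars are the median and quartiles of sorted reads among sgRNAs with any, in 10 bins by unsorted reads, and the dashed line is an equal share of both libraries. The diamonds climb only from 26 to 48, and 3 of the 4 enriched FET sgRNAs sit near 27 unsorted reads while all FLI1 sgRNAs lie at 0.

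Genes related to these by family or function were read by the same calls, from lists made with earlier results of these data known. ERG, FEV, ETV1 and ETV4 are ETS factors that replace FLI1 in rarer Ewing sarcoma fusions, and in this line they are not part of the fusion. Of their 16 sgRNAs, 5 were enriched (31.2%), 6 were depleted and 7 had 0 sorted reads, with a median log2 ratio of -0.68. Over all sgRNAs 20.8% were enriched, 51.7% were depleted and 57.6% had 0 sorted reads, with a median of -2.82. FEV had 2 enriched sgRNAs, the higher odds ratio being 15.6, and ETV1 had 2, the higher being 6.30. ERG had 1 enriched sgRNA (4.10), and ETV4 had 0, its highest odds ratio being 1.73. At least 2 enriched sgRNAs were thus found for 2 of the 4 genes, and for 19.9% of all genes with 4 listed sgRNAs. Each of the 4 genes kept sorted reads for at least 1 sgRNA, unlike FLI1.

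Over the 27 ETS genes other than FLI1, these 4 included, 22 of 107 sgRNAs were enriched (20.6%) and 55 were depleted (51.4%), close to the shares over the library. Their median log2 ratio was -2.64, and 60 (56.1%) had 0 sorted reads. At least 2 enriched sgRNAs were found for 6 of the 27 genes, beside the 19.9% of all genes with 4 listed sgRNAs. Besides FEV and ETV1 these were ELK3, SPIC, ETV3 and ETS2, with highest odds ratios of 2.55, 3.41, 8.16 and 5.26. All 4 sgRNAs were at 0 sorted reads, as for FLI1, for 6 others, which were ETS1, GABPA, ERF, EHF, ETV7 and SPI1 and which are named here after their values were seen. Over all genes with 4 listed sgRNAs this share was 12.5%.

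Among 15 genes of RNA-binding proteins that have prion-like regions like those of FET proteins or that gather in paraspeckles, 14 of 56 sgRNAs were enriched (25%), 29 were depleted (51.8%) and 32 (57.1%) had 0 sorted reads, where the shares over all sgRNAs were 20.8%, 51.7% and 57.6%. Of these genes 4 had at least 2 enriched sgRNAs, beside 19.9% of all genes with 4 listed sgRNAs and 9.66% of those with 3. TARDBP, which encodes the splicing regulator TDP-43, had 3 of 4, with an odds ratio of up to 6.47 and a median log2 ratio of 1.75. HNRNPA1, a splicing repressor, had 2 of 3, with up to 3.49 and a median of 1.37. HNRNPH1 and TIA1, which also regulate splicing, had 2 each, with highest odds ratios of 27.9 and 6.20. HNRNPD and NONO had 0 sorted reads for all 4 of their sgRNAs, and HNRNPA2B1 had 4 of 4 depleted; these genes are named after their values were seen. The median log2 ratio over the 56 sgRNAs was -2.32, against -2.82 over all sgRNAs.

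TNPO1 and TNPO2 import FET proteins into the nucleus, and PRMT1 methylates their arginines. Of the 12 sgRNAs against TNPO1, TNPO2 and PRMT1, 11 had 0 sorted reads, 7 were depleted and 1 was enriched, with a median log2 ratio of -4.46. The shares over all sgRNAs were 57.6% at 0, 51.7% depleted and 20.8% enriched. TNPO1 (transportin 1) had 670 unsorted and 0 sorted reads over its 4 sgRNAs, and PRMT1 had 178 and 0, where 12.5% of genes with 4 listed sgRNAs were at 0 for all of them. TNPO2 had 954 unsorted reads and 161 sorted ones, all from 1 sgRNA with an odds ratio of 5.34. SNRNP70, SNRPA and SNRPC encode some of the proteins of the U1 snRNP, a particle with which FET proteins interact. Of the 12 sgRNAs against these genes, 3 were enriched (25%, beside 20.8% of all sgRNAs) and 3 were depleted (25%, beside 51.7%). Of the same 12, 5 had 0 sorted reads (41.7%, beside 57.6%). Each of these genes had 1 enriched sgRNA, with odds ratios of 6.68, 2.22 and 21.6, and the median log2 ratio over the 12 was -1.19.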

How the data were processed

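The authors amplified the guide cassettes from genomic DNA of the unsorted and sorted cells (24 first-round reactions of 20 cycles, then 15 cycles), sequenced them on a MiSeq and mapped the guides to the Brunello library with Bowtie 1.2.2, allowing up to 3 mismatches. They deposited whole-number counts of reads per sgRNA with each library total, without normalization. Columns of odds ratios and p-values deposited beside them were not used and not compared. The genome build is not given in the sources used here and no coordinates are printed. RefSeq (GRCh38.p14) was used only for gene names, chromosomes and 1 promoter window. The accession of each of the 3 genes matched it.

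The 3 repeated entries among 74339 were dropped, and the 74336 distinct counts sum to the library totals. The Fisher test follows the study's methods, and the rule for depleted sgRNAs mirrors its rule for enriched ones. Exact intervals follow Clopper and Pearson: the sorted share of all reads of an sgRNA got its 95% interval, which was converted to odds ratios. A fold given at the floor of 3 reads takes the unsorted count as free of error, so it can exceed what the exact limit bounds. The calls were tested only on simulated counts that varied by counting error, with changes planted in sgRNAs with at least 30 unsorted reads. That test does not cover spread beyond counting error. Nor does it cover rarer sgRNAs, which all 4 enriched ones here were. The genes and lists were chosen with earlier results of these data known. Named genes are EWSR1, TAF15 and FLI1, all genes of a list of at most 5, and in longer lists those with at least 2 enriched sgRNAs (at most 6). Genes named as wholly at 0 or wholly depleted fall outside this rule. The planned matching of guides to protein positions was not done, since no protein sequence, and no genome sequence beyond the promoter window, was used here. Alternatives were other odds ratio limits (above or below 1), at least 30 unsorted reads, scaling on olfactory receptor sgRNAs, random thinning of the unsorted reads to equal depth, Bonferroni adjustment, an edgeR negative binomial exact test and a pseudocount of 5. Software was R 4.3.3 with edgeR 4.0.16, and Python 3.11.15 with scipy 1.17.1, pandas 2.3.3, numpy 2.4.6 and, for plots, matplotlib 3.10.9.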

Additional observations from a re-analysis of the deposited data

How the results depend on the processing

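Of 48 values for EWSR1, TAF15 and FLI1 under 7 alternatives, 11 changed, as given here. The other 37 were counts that stayed the same, or medians that kept their sign and stayed within counting error. The widest moves among these were FLI1 from -3.22 to -4.87 with a minimum of 30 unsorted reads and EWSR1 from 2.80 to 3.51 with thinning. For FLI1, at 0 sorted reads, the range had no lower end, so a lower median could not count as changed. Some other values could not change either. FLI1 sgRNAs at 0 sorted reads cannot be enriched, and the negative binomial test below could call nothing. With a minimum of 30 unsorted reads EWSR1 had 0 enriched sgRNAs and a median log2 ratio of -0.91, from sgRNA 3 alone, and TAF15 had 0 and a median of 0.36, also from its sgRNA 3 alone. EWSR1 had 1 depleted sgRNA, sgRNA 3, when the limit was an odds ratio below 1 and when the unsorted library was thinned. With Bonferroni adjustment FLI1 had 1 depleted sgRNA and the library 17458. With a pseudocount of 5 the median of FLI1 was -0.12. Scaling on olfactory receptor sgRNAs, which put the depth ratio at 7.45, changed none of these counts. Under edgeR's negative binomial exact test EWSR1 and TAF15 had 0 enriched sgRNAs, FLI1 had 0 depleted ones, and 0 of all sgRNAs were enriched or depleted. With 1 library a group and a dispersion of 2.74 over 1457 olfactory receptor sgRNAs, its smallest unadjusted p was 0.107, with 0 under 0.05, so that test could call nothing and says nothing of stability. Counting error limits the rarest sgRNAs most: below 22 unsorted reads an equal share is under the floor of 3 sorted reads. No paired analysis was possible because each group is 1 library.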
